A study of Homo sapiens with 24 samples.

Results

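The genes described here make leukotrienes and prostanoids from arachidonic acid or carry their signal into the cell. They are 10 of the 19775 genes that the arrays name: ALOX5, ALOX5AP, LTA4H, LTC4S, LTB4R, CYSLTR1, PTGS1, PTGS2, TBXAS1 and PTGER4. They were chosen by their place in the pathway, with the rise of ALOX5 in treated cells already known, and each gene is represented by its probe set of highest mean level. The levels come from 24 arrays of established human leukemia cell lines, 3 for each of 8 groups. MV4-11, a biphenotypic B myelomonocytic leukemia with an MLL-AF4 rearrangement, was grown in IMDM with fetal bovine serum and sampled on days 2, 4 and 6. MOLM-13, an acute myeloid leukemia line with MLL-AF9, was grown in RPMI with fetal bovine serum and sampled on day 6. At each of these points, cultures with 3 uM EPZ004777, an inhibitor of the histone H3 lysine methyltransferase DOT1L, stood beside cultures with the vehicle, 0.1% DMSO. Each line comes from the cells of a single patient, and the labels call the replicates biological without saying how the cultures were separated, so the p-values measure the spread between these samples, which may be technical.

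Phospholipases free arachidonic acid from membranes, and enzyme branches then compete for it. In the leukotriene branch, 5-lipoxygenase (ALOX5), helped by its activating protein (ALOX5AP), makes leukotriene A4, which LTA4H hydrolyses to leukotriene B4 and LTC4S joins to glutathione as leukotriene C4. LTB4R is the high-affinity receptor of leukotriene B4, a chemoattractant, and CYSLTR1 is a receptor of the cysteinyl leukotrienes. In the prostanoid branch, the cyclooxygenases PTGS1 and PTGS2 make prostaglandin H2, which TBXAS1 turns into thromboxane A2, and PTGER4 is the EP4 receptor of prostaglandin E2. Monocytes, macrophages and granulocytes are main producers of leukotrienes.

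All levels are log2 of the deposited intensity of a probe set, and differences are treated minus vehicle on that scale with the SE of the model. A gene was tested if its log2 level was at least 4 on at least 3 arrays, and was called if its adjusted p, from limma with Benjamini-Hochberg adjustment over the 10971 genes tested, was under 0.05. Of the 10 genes, 9 passed that filter and PTGS2 did not. ALOX5 is described without a test, because its rise chose the group and because the 7 arrays on which it reached 4 were all treated arrays. The tests below are therefore of the other 8 genes. The lowest level, 2.19, was the same on all 24 arrays. A level there is no more than an upper bound, and a difference from it depends on the background adjustment. In cultures of whole cells, a change in the share of cells that use a gene and a change in the RNA per cell cannot be told apart.

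Some arrays stood apart before any gene of the pathway was considered. RNA quality can be read from control probes at both ends of a transcript. The 3' minus 5' level, averaged over ACTB and GAPDH, was 2.10 to 2.84 on the treated MOLM-13 arrays and 0.95 to 1.15 on their vehicle arrays. On day 6 in MV4-11 cells it was 0.83 to 1.91 in treated and 0.57 to 0.58 in vehicle cultures, with replicate 3 of the treated group at 1.91, and it was 0.53 to 0.82 in the other 4 groups. The vehicle arrays of day 4 stood apart in another way. The array medians of 10 interferon-stimulated genes were 7.65 to 8.54 there, against 2.80 to 4.13 and 2.73 to 7.13 in the vehicle arrays of days 2 and 6. MEIS1 and FLT3, markers of such leukemias, and PTPRC, a general leukocyte marker, had group means of at least 8.43 in all 8 groups. They were not steady. On day 6 the treated and vehicle means of MEIS1 were 10.32 and 11.03 in MV4-11 and 8.43 and 10.53 in MOLM-13 cells. Those of FLT3 were 11.13 and 12.39, and 10.01 and 12.06. Those of PTPRC were 10.33 and 9.95, and 9.65 and 9.71.

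ALOX5, whose rise was known when the genes were chosen, had the largest treated minus vehicle differences of the 10 genes from day 4 on. In MV4-11 cells it was at the lowest level, 2.19, on all 6 arrays of day 2, and the vehicle arrays remained at 2.19 to 2.20 on days 4 and 6. The treated arrays read 3.85, 3.82 and 4.06 on day 4. By day 6 they read 6.78, 7.15 and 7.19. In MOLM-13 cells the vehicle arrays read 3.38, 3.03 and 3.58 and the treated arrays 9.37, 9.62 and 9.65. The groups did not overlap on day 4 or day 6 in either line, which is a description only, since the gene was picked for its rise. The differences were 0.00, 1.72, 4.85 and 6.22 on days 2, 4 and 6 in MV4-11 and on day 6 in MOLM-13 cells, each with an SE of 0.11. That SE pools all 8 groups, including those at the lowest level, whose SD was at most 0.01. On day 2, with every array at the lowest level, it does not measure the spread of the arrays compared. In MV4-11 cells the vehicle side of each difference is the lowest level, which is not a measurement.

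In the order of its group means, treated MOLM-13 came first (9.55 ± 0.15, SD, n = 3), followed by treated MV4-11 of day 6 (7.04 ± 0.23) and of day 4 (3.91 ± 0.13). Vehicle MOLM-13 followed at 3.33 ± 0.28, with its highest array, 3.58, below the lowest of the group before it, 3.82, and the 4 remaining groups lay together at the lowest level. These levels rest on probe set 204446_s_at. Its 3 other probe sets stayed below 4 on every array, but 204445_s_at and 214366_s_at had treated MOLM-13 readings of up to 3.61 and 3.75, where vehicle arrays read 2.24 and 2.19. With this 3' to 5' value of the arrays as a covariate, a setting chosen after the data were seen, the day 6 differences were 4.68 in MV4-11 and 5.84 in MOLM-13 cells. In each line and day the covariate differed between treated and vehicle arrays without overlap. Every value given with it, here and below, therefore rests on extending its slope within groups across that gap.

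**Figure D1:**
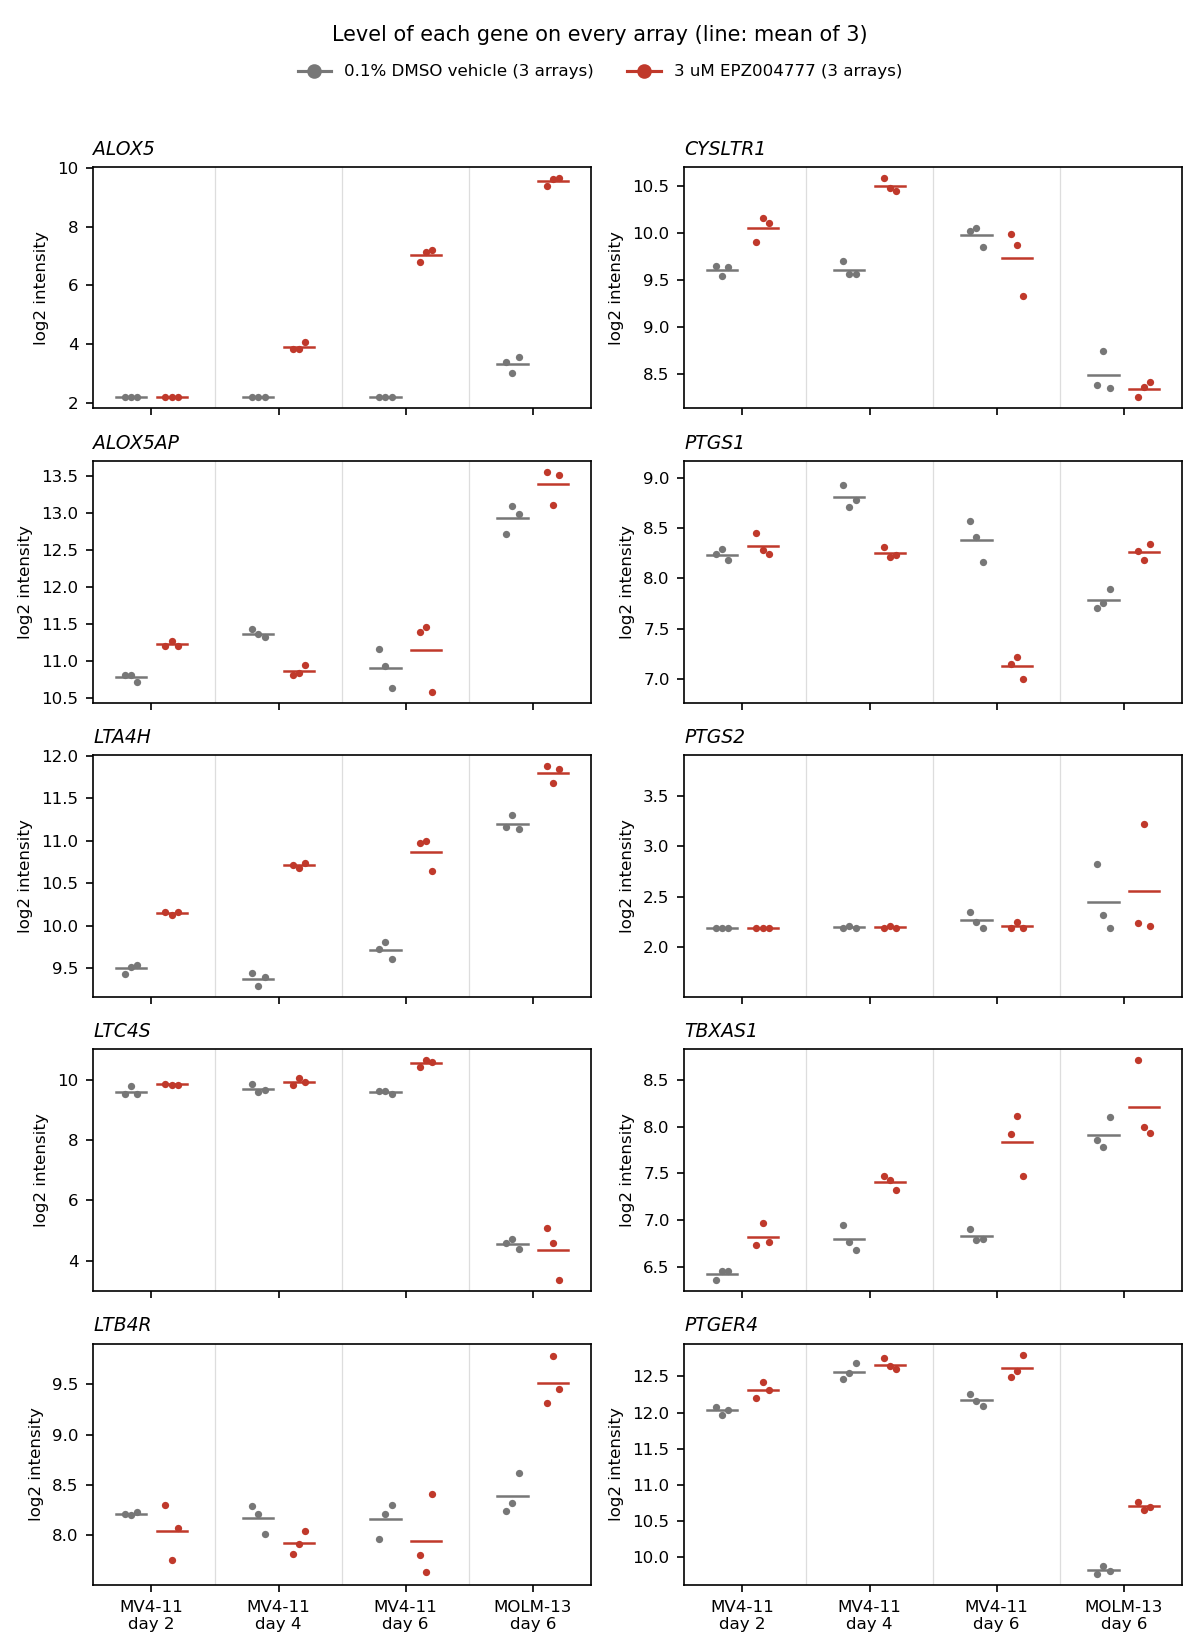
Log2 intensity of each of the 10 genes (vertical axis, a scale of its own in each panel) on every array by line and day (horizontal axis), in grey for vehicle and in red for EPZ004777 cultures, with a line at the mean of 3 arrays. ALOX5 reads 9.37 to 9.65 in treated MOLM-13 cells against 3.03 to 3.58 in vehicle cells, LTA4H is higher on each treated array than on each vehicle array of the same line and day, and PTGS2 remains at 2.19 to 3.22.

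LTA4H, the hydrolase that commits leukotriene A4 to leukotriene B4, rose under the inhibitor in all 4 comparisons and was the only tested gene of the 8 called in each. On day 2 in MV4-11 cells the treated arrays read 10.16, 10.12 and 10.16 and the vehicle arrays 9.43, 9.51 and 9.54. On day 4 they read 10.72, 10.68 and 10.74 against 9.44, 9.29 and 9.39. On day 6 the treated arrays read 10.97, 11.00 and 10.65 and the vehicle arrays 9.72, 9.81 and 9.61. No treated array overlapped a vehicle array of its day. The differences were 0.65 ± 0.08 (adjusted p = 1.56e-05), 1.34 ± 0.08 (9.87e-11) and 1.16 ± 0.08 (4.26e-10), or 1.57-fold, 2.53-fold and 2.23-fold. In MOLM-13 cells, the levels of 11.88, 11.68 and 11.85 stood against 11.16, 11.30 and 11.14, a difference of 0.60 ± 0.08 (adjusted p = 2.54e-06) or 1.52-fold, and of 1.02 with the 3' to 5' covariate. Each of these calls held when any 1 array was left out.

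ALOX5AP, the membrane protein that presents arachidonic acid to 5-lipoxygenase, differed in both directions. Its levels were high throughout, from 10.59 to 13.55. On day 4 the treated MV4-11 arrays read 10.82, 10.84 and 10.95 and the vehicle arrays 11.43, 11.36 and 11.32, which is a fall of 0.50 ± 0.17 (adjusted p = 0.0239). Against the vehicle arrays of days 2 and 6 in place of those of day 4, the difference was 0.02 and was not called. In MOLM-13 cells the treated arrays read 13.55, 13.10 and 13.51 and the vehicle arrays 12.71, 13.09 and 12.98, a rise of 0.46 ± 0.17 (adjusted p = 0.0259). The lowest treated array stood just above the highest vehicle array. This call was lost without treated replicate 1 or 3 or vehicle replicate 1, and that of day 4 without treated replicate 1 or 2 or vehicle replicate 1 or 2, where the difference lay between -0.51 and -0.47. The differences of 0.44 ± 0.17 on day 2 and 0.24 ± 0.17 on day 6 in MV4-11 cells were not called. Treated replicate 3 of day 6, the array with the high 3' to 5' value, read 10.59 beside 11.39 and 11.46, and without it the day 6 difference was 0.52 and was called. With the 3' to 5' covariate ALOX5AP differed by 0.36 on day 2 and 0.71 on day 6 in MV4-11 cells, both called, and by 1.47 in MOLM-13 cells.

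LTC4S, the synthase of leukotriene C4, separated the lines more than any other of the 10 genes. The vehicle arrays of day 6 read 9.65, 9.62 and 9.54 in MV4-11 and 4.57, 4.72 and 4.39 in MOLM-13 cells. MOLM-13 was lower by a difference of -5.04 ± 0.25 (adjusted p = 6.81e-13). In MV4-11 cells treated arrays of day 6 read 10.44, 10.65 and 10.59, all above the vehicle arrays, a rise of 0.96 ± 0.25 (adjusted p = 0.00253). On days 2 and 4 the differences were 0.24 and 0.23, with an SE of 0.25, and were not called. The treatment difference of day 6 exceeded those of days 2 and 4 by 0.72 ± 0.35 and 0.73 ± 0.35, neither called. With only the arrays of the comparison both were called (adjusted p = 0.000796 and 0.00465), as they were with log2(value + 16). The SE of the main fit is shared by all 8 groups, including the scattered treated MOLM-13 arrays. In treated MOLM-13 cells the gene read 5.07, 4.6 and 3.36, a spread (SD 0.88) that overlapped the vehicle arrays, and the difference of -0.22 ± 0.25 was called only without treated replicate 1 (-0.58).

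For comparison with these values, the 250 bases before the RefSeq start site (GRCh38.p14) are shown for 3 genes, 5′ to 3′. PTGS2 is shown because it remained near the lowest level, and LTA4H and TBXAS1, chosen after their values were seen, because both rose in MV4-11 cells. Capitals mark letters that match a motif on either strand. The motif GAGGAA is an ETS core as bound by PU.1. TATAAA is the TATA box. TTNNGCAA stands for C/EBP. CCAAT is the box of that name. Also searched were the GC box, the EGR motif and the CRE, whose letters are given with their shares. Promoters of the table were matched for 9 of the 10 genes, and none was found for ALOX5. The start sites of LTA4H and TBXAS1 lie inside the annotated spans of their genes.
PTGS2, chr1:186680424-186680673, minus strand: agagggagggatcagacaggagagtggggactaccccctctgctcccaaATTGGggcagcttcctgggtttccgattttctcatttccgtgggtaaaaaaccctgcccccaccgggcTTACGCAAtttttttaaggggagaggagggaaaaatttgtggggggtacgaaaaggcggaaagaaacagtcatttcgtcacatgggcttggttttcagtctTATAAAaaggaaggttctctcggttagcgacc
LTA4H, chr12:96035588-96035837, minus strand: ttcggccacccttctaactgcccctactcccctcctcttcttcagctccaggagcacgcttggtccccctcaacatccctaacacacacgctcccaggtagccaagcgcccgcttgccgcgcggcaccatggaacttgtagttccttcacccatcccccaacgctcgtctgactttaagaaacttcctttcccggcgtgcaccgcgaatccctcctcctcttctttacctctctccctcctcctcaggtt
TBXAS1, chr7:139829014-139829263, plus strand: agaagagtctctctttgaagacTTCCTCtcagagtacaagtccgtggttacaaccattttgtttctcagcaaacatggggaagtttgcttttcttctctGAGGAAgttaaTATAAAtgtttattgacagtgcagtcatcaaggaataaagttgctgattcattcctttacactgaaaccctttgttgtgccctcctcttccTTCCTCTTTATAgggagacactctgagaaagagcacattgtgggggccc
The PTGS2 window held a TATA box match at -32 from the start site, a C/EBP match at -133 and a CCAAT match at -201. The TBXAS1 window held 3 ETS core matches, at -228, -151 and -49, and 2 TATA box matches, at -140 and -43, of which the last adjoins the ETS match at -49 without overlapping it. The LTA4H window held none of the listed letters. Of 34788 distinct promoter windows of that length, 23.6% held the ETS core, 10.8% the TATA box, 9.05% the C/EBP motif and 32.0% the CCAAT box. The GC box, GGGCGG, was in 42.6% of them. The EGR motif, GCGNGGGCG, was in 8.41%. The CRE, TGACGT, was in 7.09%. ALOX5AP, LTC4S and CYSLTR1 also held the ETS core, with 2, 1 and 1 matches, and PTGER4, PTGS1 and LTB4R did not. The GC box was in PTGER4 with 4 matches, and in LTC4S and each PTGS1 window with 1. PTGER4 also held the CCAAT box with 2 matches, and CYSLTR1 and a PTGS1 window the TATA box with 1. The LTB4R window held none of the listed letters. A match describes letters and is no evidence that a factor binds there.

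LTB4R, the leukotriene B4 receptor, rose in MOLM-13 cells and was not called in MV4-11 cells. The treated MOLM-13 arrays read 9.31, 9.78 and 9.45 and the vehicle arrays 8.24, 8.32 and 8.62, without overlap. The rise was 1.13 ± 0.17 (adjusted p = 1.18e-05). Its 2 other probe sets, 216388_s_at and 236172_at, differed by 0.85 ± 0.11 and 1.03 ± 0.08 in the same direction. With the 3' to 5' difference as a covariate the MOLM-13 difference was 0.28 and was not called. The covariate differs between the treated and vehicle groups without overlap, as given above. In MV4-11 cells the differences were -0.18, -0.25 and -0.21 on days 2, 4 and 6, each ± 0.17, and treated and vehicle arrays overlapped on each day. There 216388_s_at differed by -0.40 ± 0.11 on day 4 and -0.51 ± 0.11 on day 6, and 236172_at by 0.20 ± 0.08 and -0.06 ± 0.08. Without treated replicate 3 of day 6, which read 8.41 beside 7.80 and 7.63, that day's difference was -0.44 and was called, as it was with the 3' to 5' covariate (-0.60) and by the mean of its probe sets (-0.26). LTB4R overlaps LTB4R2 in the genome, and probe sets there can read both.

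CYSLTR1, the cysteinyl leukotriene receptor, rose on days 2 and 4 in MV4-11 cells by its probe set with the highest mean, 231747_at. On day 2 the treated arrays read 9.91, 10.16 and 10.11 against 9.65, 9.54 and 9.64, a rise of 0.45 ± 0.13 (adjusted p = 0.0266). That call was lost in 5 of 6 leave-outs, without treated replicate 2 or 3 or any vehicle replicate, with differences of 0.40 to 0.47. On day 4 they read 10.59, 10.48 and 10.45 against 9.70, 9.57 and 9.57, a rise of 0.89 ± 0.13 (adjusted p = 1.25e-05). On day 6 the difference was -0.25 ± 0.13 and in MOLM-13 cells -0.15 ± 0.13, neither called. Without treated replicate 3 of day 6, at 9.33 beside 9.99 and 9.88, the day 6 difference was -0.04, and it was called without treated replicate 1 (-0.37) and with a common median (-0.32). A second probe set, 230866_at, gave another picture from day 6 on. On day 6 it read 9.53, 9.73 and 9.38 in treated and 8.96, 9.0 and 8.81 in vehicle MV4-11 cultures, without overlap, a difference of 0.62 ± 0.10. In MOLM-13 cells it differed by 0.73 ± 0.10, and the third, 216288_at, by 1.35 ± 0.12. By the mean of its probe sets, 216288_at included, the gene was called higher in MOLM-13 cells, with a difference of 0.65. Probe set 216288_at read 5.99 on each treated MV4-11 array of day 2 and 6.01, 5.97 and 5.99 on the vehicle MOLM-13 arrays. Values so alike may be a background level of that probe set, which was not tested. Differences from them may then depend on the background adjustment.

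PTGS1, the constitutive cyclooxygenase, fell in MV4-11 cells and rose in MOLM-13 cells. On day 2 the treated arrays, at 8.45, 8.28 and 8.24, overlapped the vehicle arrays, at 8.24, 8.29 and 8.18, and the difference of 0.09 ± 0.09 was not called. On day 6 the treated arrays read 7.15, 7.22 and 7.0 and the vehicle arrays 8.57, 8.41 and 8.16, a fall of 1.25 ± 0.09 (adjusted p = 6.78e-10). In MOLM-13 cells the treated arrays read 8.27, 8.18 and 8.34 and the vehicle arrays 7.70, 7.75 and 7.89, a rise of 0.48 ± 0.09 (adjusted p = 0.000122). Treated and vehicle arrays were separated in both lines on that day, in opposite directions. On day 4 the treated arrays read 8.31, 8.21 and 8.23 and the vehicle arrays 8.93, 8.71 and 8.78, a fall of 0.55 ± 0.09 (adjusted p = 5.18e-05). Against the vehicle arrays of days 2 and 6 the day 4 difference was -0.06 and was not called. The probe set 205128_x_at differed by -1.25 ± 0.11 on day 6 and by 0.54 ± 0.11 in MOLM-13 cells, whereas 238669_at differed by 0.02 ± 0.12 and 0.51 ± 0.12. The fourth, 205127_at, read below 4 on every array, and the mean of the probe sets differed by -0.64 on day 6 and -0.29 on day 4.

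PTGS2, the inducible cyclooxygenase, was not above 3.22 on any array. In MV4-11 cells it read 2.19 to 2.35, and in MOLM-13 cells 2.82, 2.32 and 2.19 with vehicle and 2.24, 3.22 and 2.21 with the inhibitor. Its second probe set, 1554997_a_at, differed by 0.00 in all 4 comparisons. The gene was therefore not tested, and its level was not measurable in these cultures.

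TBXAS1, thromboxane A synthase, rose in MV4-11 cells on days 4 and 6. On day 4 the treated arrays read 7.47, 7.43 and 7.32 and the vehicle arrays 6.95, 6.77 and 6.68, a rise of 0.61 ± 0.17 (adjusted p = 0.00519). On day 6 they read 7.92, 8.12 and 7.47 against 6.90, 6.79 and 6.80, a rise of 1.01 ± 0.17 (adjusted p = 2.79e-05). Treated arrays were above vehicle arrays on each of the 3 days, although the day 2 difference of 0.40 ± 0.17 was not called. The treated MOLM-13 arrays, at 8.71, 8.0 and 7.93, overlapped the vehicle arrays, at 7.86, 7.78 and 8.10, and the difference of 0.30 ± 0.17 was not called. It was called with the 3' to 5' covariate (1.04), with a common median (0.38) and without treated replicate 3 (0.44). The mean with the second probe set, which read below 4, differed by 0.51 on day 6 and 0.30 on day 4 in MV4-11 cells.

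PTGER4, the EP4 receptor, rose on days 2 and 6 in MV4-11 cells and in MOLM-13 cells by probe set 204897_at. The treated MOLM-13 arrays read 10.76, 10.65 and 10.70 and the vehicle arrays 9.77, 9.88 and 9.81, a rise of 0.89 ± 0.08 (adjusted p = 1.13e-08). In MV4-11 cells of day 6 they read 12.49, 12.57 and 12.80 against 12.26, 12.16 and 12.09, a rise of 0.45 ± 0.08 (adjusted p = 6.34e-05). Treated and vehicle arrays did not overlap in either line. The day 2 rise was 0.28 ± 0.08 (adjusted p = 0.0238), and it was lost without treated replicate 2 or 3 or vehicle replicate 2 or 3. On day 4 the difference of 0.10 ± 0.08 was not called, and it was 0.56 and called against the vehicle arrays of days 2 and 6. The second probe set, 204896_s_at, read the other way on day 6, with 3.02, 3.19 and 2.54 in treated and 4.18, 4.85 and 4.13 in vehicle MV4-11 cultures, a difference of -1.47 ± 0.24. It was at 2.54 on every MOLM-13 array, and the mean of the probe sets differed by -0.51 on day 6 in MV4-11 and 0.44 in MOLM-13 cells.

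**Figure D2:**
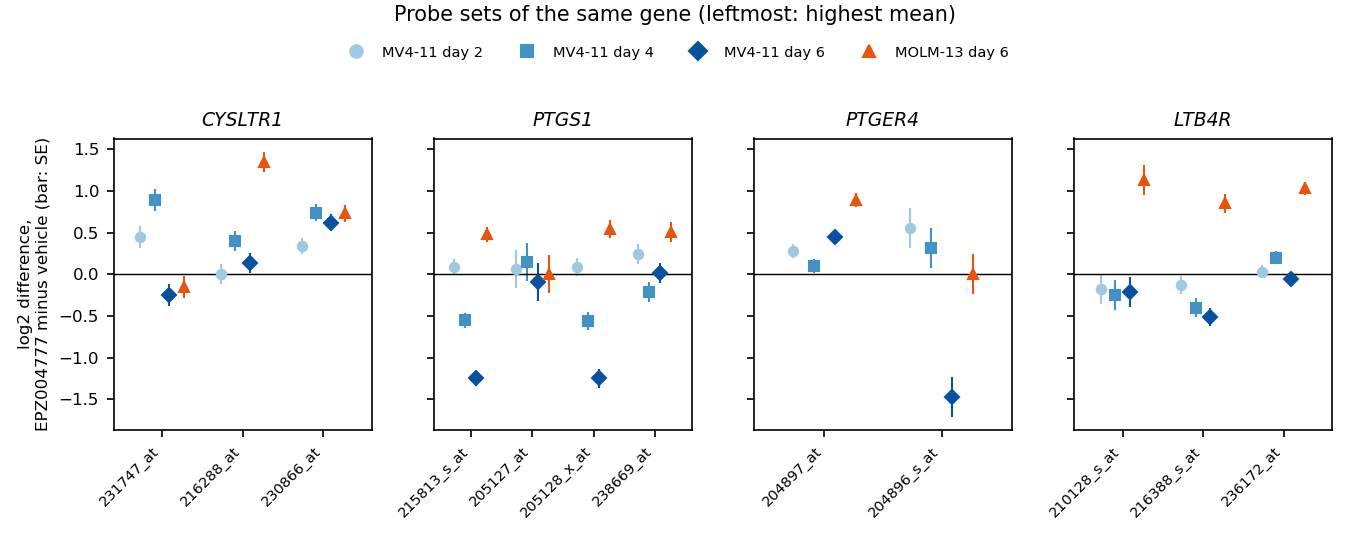
Log2 difference of treated minus vehicle cultures (vertical axis, bars are the SE of the model, 3 arrays per group) for each probe set of CYSLTR1, PTGS1, PTGER4 and LTB4R (horizontal axis), with a symbol for each line and day. The 3 LTB4R probe sets lie between 0.85 and 1.13 in MOLM-13 cells, while the PTGER4 probe sets on day 6 in MV4-11 cells lie at 0.45 and -1.47.

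Counted over the 8 tested genes, 3 were called higher and 0 lower on day 2 in MV4-11 cells, where 12.5% of the 10971 genes were called. On day 4, 3 were higher (LTA4H, CYSLTR1 and TBXAS1) and 2 lower (PTGS1 and ALOX5AP), beside 46.2% of all genes. On day 6, 4 were higher (LTA4H, TBXAS1, LTC4S and PTGER4) and 1 lower (PTGS1), beside 62.0%. In MOLM-13 cells 5 were higher (LTB4R, PTGER4, LTA4H, PTGS1 and ALOX5AP) and 0 lower, beside 65.8%. These counts leave out ALOX5 and PTGS2, and nothing is read from them against the shares over all genes. The median differences of the 8 genes were 0.34, 0.16, 0.34 and 0.47, and those of all genes 0.02, 0.01, 0.04 and -0.03.

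**Figure D3:**
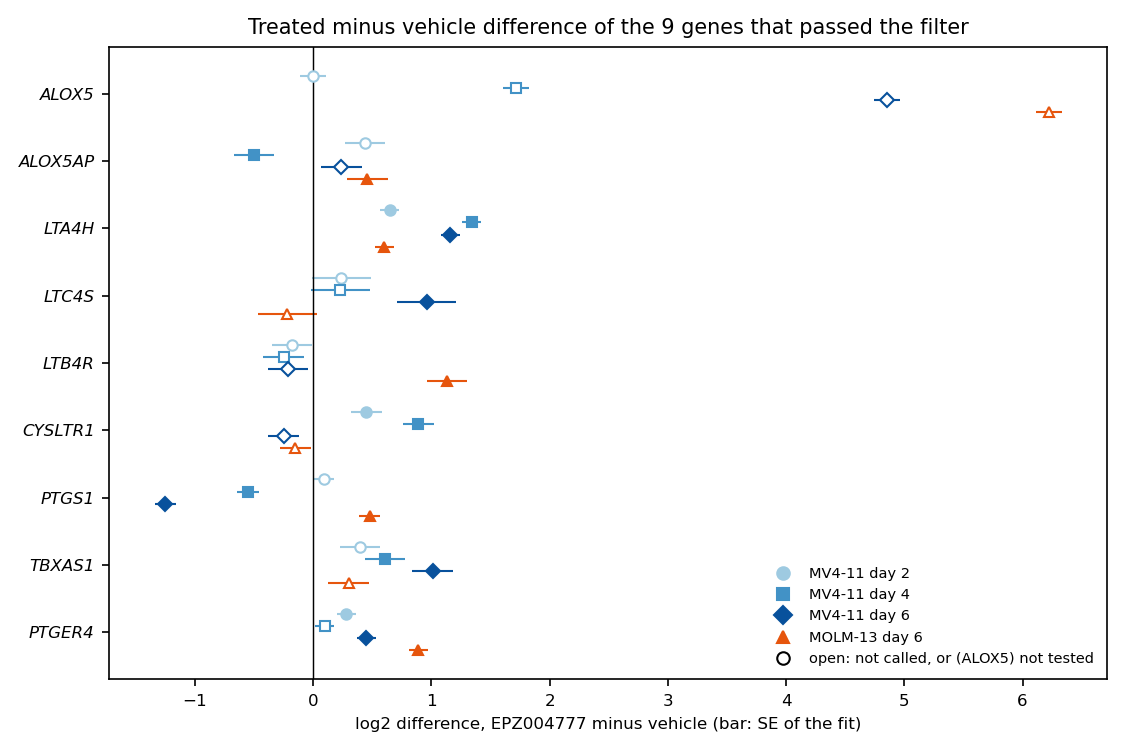
Log2 difference of treated minus vehicle cultures (horizontal axis, bars are the SE of the model, 3 arrays per group) for the 9 genes that passed the filter, with a symbol for each line and day and filled symbols for called differences. ALOX5, which was not tested, reaches 4.85 and 6.22 on day 6, and PTGS1 lies at -1.25 in MV4-11 and 0.48 in MOLM-13 cells.

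The treatment difference itself was then compared between days in MV4-11 cells. From day 2 to day 4 it grew for LTA4H by 0.69 ± 0.12 (adjusted p = 0.000368), and it moved down for ALOX5AP by -0.94 ± 0.25 (0.013) and for PTGS1 by -0.64 ± 0.13 (0.00175), 3 of the 8 genes beside 15.0% of all genes. Between treated arrays alone, ALOX5AP differed by -0.36 and PTGS1 by -0.07, neither called, and by the mean of probe sets PTGS1 differed by -0.42 and was not called. Between day 4 and day 6, 4 of the 8 passed, beside 25.7%. CYSLTR1 differed by -1.14 ± 0.18 (adjusted p = 0.000258), PTGS1 by -0.70 ± 0.13 (0.000841), ALOX5AP by 0.74 ± 0.25 (0.0327) and PTGER4 by 0.35 ± 0.11 (0.027). ALOX5AP and PTGER4 were lost in 9 and 6 of 12 leave-outs and with only the arrays of the comparison. Between treated arrays alone ALOX5AP differed by 0.28 and PTGER4 by -0.04, neither called, and PTGS1 by -1.13. PTGER4 was also lost with the 3' to 5' covariate (0.25), with which ALOX5AP differed by 1.31. By the mean of probe sets CYSLTR1 differed by -0.51, PTGS1 by -0.35, which was not called, and PTGER4 by -0.72. The other CYSLTR1 probe sets, 230866_at and 216288_at, differed by -0.12 ± 0.14 and -0.26 ± 0.17 between these days. Of the day 6 minus day 2 differences, 4 of the 8 passed beside 39.6% of all genes: PTGS1 at -1.34 ± 0.13 (adjusted p = 2.3e-07), CYSLTR1 at -0.70 ± 0.18, LTA4H at 0.50 ± 0.12 and TBXAS1 at 0.61 ± 0.23, the last with an adjusted p of 0.0444 and lost in 10 of 12 leave-outs, unfiltered and with a common median (0.56). The CYSLTR1 call was lost by the mean of probe sets (-0.09) and with the 3' to 5' covariate (-0.38). With the covariate TBXAS1 differed by 1.02, and by the mean of probe sets PTGS1 differed by -0.77 and TBXAS1 by 0.31, all called.

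Between the lines on day 6, 6 of the 8 tested genes differed in their response, beside 52.0% of all genes. PTGS1 had the largest difference, 1.73 ± 0.13 in MOLM-13 minus MV4-11 cells (adjusted p = 2.35e-09), since it rose in the former and fell in the latter. The response of LTB4R was higher in MOLM-13 cells by 1.33 ± 0.24 (adjusted p = 0.000156) and that of PTGER4 by 0.44 ± 0.11 (0.00302). It was lower in MOLM-13 cells for LTC4S (-1.18 ± 0.35, adjusted p = 0.00922), TBXAS1 (-0.71 ± 0.23, 0.0156) and LTA4H (-0.56 ± 0.12, 0.000515). That of TBXAS1 was lost without treated replicate 2 of MV4-11 or treated replicate 3 of MOLM-13, and with the 3' to 5' covariate, where it was -0.31. That of LTC4S was -0.69 without treated replicate 3 of MOLM-13, and neither LTC4S nor TBXAS1 was called with only the arrays of the comparison. With the covariate the differences of LTA4H and LTB4R were -0.33 and 0.88, both called, and that of ALOX5AP was 0.75 and called. By the mean of probe sets PTGS1 differed by 1.03, PTGER4 by 0.95 and TBXAS1 by -0.34, and CYSLTR1 by 0.47, which was then called. For ALOX5, which was not tested here, the responses were 6.22 in MOLM-13 and 4.85 in MV4-11 cells. The MV4-11 vehicle arrays were at the lowest level, so 4.85 is no more than a lower bound and these responses cannot be ordered.

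The vehicle cultures show the starting levels of each line. MOLM-13 vehicle cells were higher than MV4-11 vehicle cells in ALOX5AP by 2.02 ± 0.17 (adjusted p = 3.91e-09), LTA4H by 1.49 ± 0.08 (3.56e-12) and TBXAS1 by 1.09 ± 0.17 (9.83e-06). They were lower in LTC4S, as given above, and in PTGER4 (-2.35 ± 0.08, adjusted p = 1.09e-15), CYSLTR1 (-1.49 ± 0.13, 4.71e-09) and PTGS1 (-0.60 ± 0.09, 1.1e-05). In all 7 of 8 genes were called, beside 63.8% of all genes, and LTB4R was the exception at 0.23 ± 0.17. By the mean of probe sets the differences of CYSLTR1, PTGS1 and TBXAS1 were -0.64, -0.37 and 0.66. The lines were also grown in different media, so line and medium cannot be told apart.

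Within MV4-11 vehicle cultures, none of the 8 genes was called between days 2 and 6 by limma (0 of 8, beside 1.12% of all genes), with differences from -0.06 to 0.40. At an unadjusted p under 0.05, 3 of the 8 passed (LTA4H, CYSLTR1 and TBXAS1), and 0 were called under each alternative run with the same arrays or with 1 array left out. On day 4 the vehicle level differed from the mean of days 2 and 6 in 4 of the 8 genes, beside 28.6% of all genes. ALOX5AP was higher by 0.53 ± 0.15 (adjusted p = 0.0134), PTGS1 by 0.50 ± 0.08 (0.000135) and PTGER4 by 0.46 ± 0.07 (7.15e-05), and LTA4H was lower by a difference of -0.23 ± 0.07 (0.0192). The ALOX5AP call was lost without vehicle replicate 1 of day 4, that of LTA4H without vehicle replicate 2 or 3, and that of PTGER4 by the mean of probe sets (0.08). On the same arrays, which hold the high interferon-stimulated genes, 8 of 10 tested immediate early and NF-kappaB genes were called higher against days 2 and 6. Whether they have a part in the levels of the pathway genes was not tested.

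Of 66 other genes of arachidonate release, conversion, breakdown, transport and reception, 61 were on the array and 29 passed the filter, of which CYP4F3 passed through treated arrays alone and is left out of the counts. On day 2 in MV4-11 cells 4 of the 28 were called higher and 1 lower, beside 12.5% of all genes called. On day 4 the numbers were 7 and 6, beside 46.2%, and on day 6 10 and 10, beside 62.0%. In MOLM-13 cells 10 were higher and 14 lower, beside 65.8%. Their median differences were 0.05, 0.04, 0.08 and -0.24. The 10 of them that were called with a difference of at least 1 in some treatment comparison are named here, and CYP4F3 beside them.

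Among genes that release arachidonic acid or return it to membranes, PLA2G4A, ACSL4 and LPCAT3 fell in both lines on day 6, and MGLL and FAAH rose in MV4-11 cells. PLA2G4A, the cytosolic phospholipase that frees arachidonic acid, fell by 0.50 ± 0.09 in MV4-11 (adjusted p = 7.95e-05) and by 1.40 ± 0.09 in MOLM-13 cells (1.09e-10), where treated arrays read 8.04, 8.32 and 8.08 and vehicle arrays 9.69, 9.62 and 9.35. ACSL4, which activates arachidonic acid with coenzyme A, fell by 0.59 ± 0.22 (adjusted p = 0.0239) and 1.33 ± 0.22 (2.32e-05), and the MV4-11 call was lost without treated replicate 1 or 2 or vehicle replicate 1 or 2 (-0.57 to -0.51). LPCAT3, which puts it back into phospholipids, fell by 1.31 ± 0.17 (adjusted p = 1.5e-06) and 1.11 ± 0.17 (1.06e-05), the latter not called with the 3' to 5' covariate (-0.48). MGLL, which breaks down the endocannabinoid monoglyceride, rose in MV4-11 cells by 0.76, 1.10 and 1.78 on days 2, 4 and 6 (± 0.13, with 5.4e-10 as adjusted p of day 6) and differed by -0.01 ± 0.13 in MOLM-13 cells. FAAH, the fatty acid amide hydrolase, rose by 0.96 ± 0.19 (adjusted p = 0.000228) and 1.12 ± 0.19 (4.41e-05) on day 6 in MV4-11 and MOLM-13 cells, the latter not called with the covariate (0.82).

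ALOX12, the platelet-type 12-lipoxygenase, fell in MV4-11 cells and rose in MOLM-13 cells. The treated MV4-11 arrays read 9.60, 9.62 and 9.62 on day 2, 8.56, 8.72 and 8.63 on day 4 and 7.76, 7.54 and 7.67 on day 6. The vehicle arrays read 10.46 to 11.33 over the 3 days. In MOLM-13 cells the treated arrays read 11.35, 11.25 and 11.37 and the vehicle arrays 9.78, 9.95 and 9.94. The groups were apart in each comparison. The falls were 0.90, 2.59 and 3.03 and the rise 1.44 (each ± 0.07, adjusted p at most 2.2e-08), and the response differed between the lines on day 6 by 4.47 ± 0.09 (adjusted p = 7.45e-18). Of the 7 megakaryocyte and platelet markers on the array, ITGA2B and NFE2 were tested. Both were called higher in MV4-11 cells on days 2, 4 and 6, beside 12.5%, 46.2% and 62.0% of all genes called. In MOLM-13 cells 1 of them was called higher, beside 65.8%. Nothing is read from these 2 genes against those shares. The other 5 had group means of at most 2.26 in all 8 groups. The part of these markers in the ALOX12 levels was not tested.

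CYP4F3, which inactivates leukotriene B4 by omega-oxidation in neutrophils, was at 2.19 on all 18 MV4-11 arrays and on the 3 vehicle MOLM-13 arrays. The treated MOLM-13 arrays read 6.42, 6.85 and 6.06. No test is given, since these 3 arrays alone brought the gene past the filter. DPEP2, a dipeptidase that turns leukotriene D4 into leukotriene E4, rose in both lines on day 6, by 1.16 ± 0.23 (adjusted p = 0.000165) and by 2.11 ± 0.23 (1.16e-07). CBR1, a carbonyl reductase that acts on prostaglandins, fell by 0.95 ± 0.15 (adjusted p = 1.76e-05) in MV4-11 and by 1.29 ± 0.15 (3.72e-07) in MOLM-13 cells, the latter -0.52 with the covariate.

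Among prostanoid receptors, PTGER2, the EP2 receptor of prostaglandin E2, fell by 0.66 ± 0.13 (adjusted p = 0.000161) in MV4-11 and rose by 1.25 ± 0.13 (5.78e-08) in MOLM-13 cells on day 6. The treated MOLM-13 arrays read 7.34, 6.92 and 6.76 and the vehicle arrays 5.75, 5.75 and 5.78. The response differed between the lines by 1.91 ± 0.18 (adjusted p = 5.65e-08). The 3 vehicle MV4-11 arrays of day 4 read 5.75 as well, while the treated MV4-11 arrays of day 6 read 5.13, 5.63 and 5.31. A value repeated in this way may be a background level of the probe set, which was not tested. The MOLM-13 rise and the difference between the lines may then depend on the background adjustment. PTGIR, the prostacyclin receptor, rose in MV4-11 cells by 0.62 ± 0.16 on day 4 (adjusted p = 0.003) and by 1.21 ± 0.16 on day 6 (1.91e-06) and differed by 0.23 ± 0.16 in MOLM-13 cells, where it was called only without treated replicate 1 (0.44). Its response was lower in MOLM-13 cells by a difference of -0.98 ± 0.22 (adjusted p = 0.00115).

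**Figure D4:**
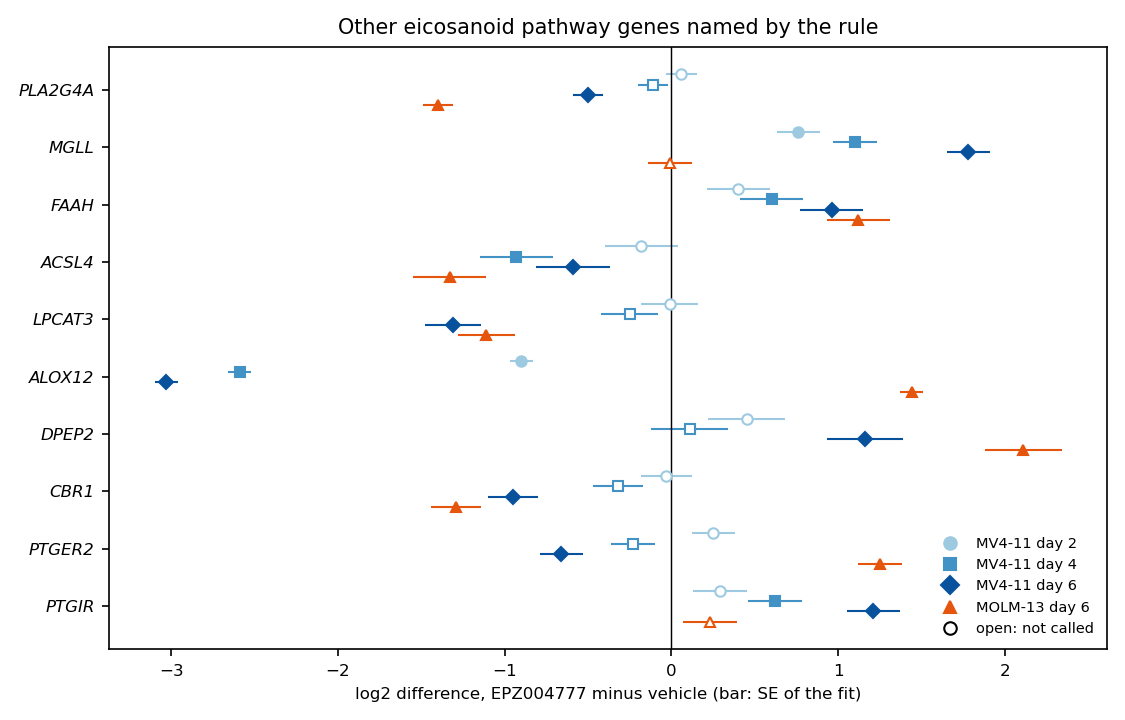
Log2 difference of treated minus vehicle cultures (horizontal axis, bars are the SE of the model, 3 arrays per group) for 10 other eicosanoid pathway genes with a called difference of at least 1, without CYP4F3, and with filled symbols for called differences. ALOX12 lies at -3.03 in MV4-11 and 1.44 in MOLM-13 cells on day 6, and PTGER2 at -0.66 and 1.25.

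The genes whose levels followed those of ALOX5 most closely over the 24 arrays, without the 10 pathway genes, were SRPX, FCGRT, S100A9, DNASE2 and SLC8A1, with Pearson correlations of 0.976, 0.975, 0.970, 0.968 and 0.963. The arrays share line, day and treatment within a group, so these values are a description and carry no p. The genes were picked for this likeness, so the order of their group levels follows from the choice. FCGRT, the neonatal Fc receptor, had group means of 8.69 to 9.04 in vehicle cultures and on day 2, and of 9.89, 10.99 and 11.73 in the 3 groups in which ALOX5 was highest. S100A9, a calcium-binding protein of neutrophils and monocytes, had means of 5.70, 7.01 and 8.72 in those groups and at most 4.94 in the others. DNASE2 had means of 7.02, 7.97 and 8.93 there, but 7.23 in vehicle MOLM-13 cells. SLC8A1, a sodium and calcium exchanger, was at 2.19 in all vehicle groups and at 5.04 and 6.18 in the treated groups of day 6. SRPX had vehicle group means of at most 2.21. Both SLC8A1 and SRPX passed the filter through treated arrays alone.

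Several neutrophil and monocyte marker genes were higher in treated cultures, on day 2 in MV4-11 cells as well, when ALOX5 was still at the lowest level. Of the 8 neutrophil markers, 4 passed the filter on both treated and vehicle arrays. Of these, 3, 4 and 4 were called higher on days 2, 4 and 6 in MV4-11 and 4 in MOLM-13 cells, and none lower, beside 12.5%, 46.2%, 62.0% and 65.8% of all genes called. The median differences of these 4 markers were 0.58, 1.13, 1.66 and 2.32, and those of all genes 0.02, 0.01, 0.04 and -0.03. S100A9, which is among these neutrophil markers, was also picked above for its likeness to ALOX5. FCGR3B and LTF, markers of mature neutrophils, were at 2.19 in every group. Of the monocyte and macrophage list, 9 of 12 genes were read by a probe set of their own and 5 passed the filter on both sides, of which 4, 4, 5 and 5 were called higher and none lower, beside the same shares of all genes. MMP9, CD14 and VCAN passed through treated arrays alone and are not counted. CD14 was at 2.19 in MV4-11 cells with and without the inhibitor and at 4.42 in treated MOLM-13 cells. Of the mast cell, basophil and eosinophil list, 4 genes passed the filter on both sides. In the same order of comparisons 1, 1, 2 and 0 of them were called higher and 0, 1, 1 and 2 lower, beside the same shares. The part of these marker genes in the levels of the pathway genes was not tested.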

How the data were processed

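RNA of 24 cultures in 8 groups of 3 was hybridised to 1 Affymetrix array each. The deposited values are 1 intensity per probe set and array on a linear scale from 4.551 to 71593, made by the authors with GCRMA, per the submitters' processing notes. GCRMA adjusts background and normalizes between arrays, so levels near the lowest value are not measurements, and no depth or count applies. Their log2 was taken here with a pseudocount of 0. Of 54675 probe sets, 41091 had 1 gene symbol, 1801 several and 11777 none, and 62 controls were left out. Symbols were matched through Entrez ID to RefSeq's GRCh38.p14 table (41037 matched). Probe sets with log2 of at least 4 on at least 3 arrays were kept, then the one with the highest mean for each gene, which left 10971 genes. PTGS2 did not pass, and ALOX5, CYP4F3, SRPX, SLC8A1 and 3 markers that passed through treated arrays alone are described without a test.

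Group means over all 24 arrays were fitted in R 4.3.3 by lmFit, contrasts.fit and eBayes (limma 3.58.1, two-sided). Within a comparison, p-values of all genes were adjusted after Benjamini and Hochberg, with 0.05 as the threshold of a call. The 11 comparisons are 4 of treatment, 4 of treatment differences and 3 of vehicle cultures. The fit was also run on simulated data with independent normal noise. These held no lowest level, no difference in RNA quality and no day 4 vehicle state, so the run does not cover those features of the arrays. The genes, the pathway and marker lists, the tests and the promoters were chosen with earlier results of these data known. All 10 genes are named, as are other pathway genes called with an absolute difference of at least 1, up to 12 by size, and the 5 genes most like ALOX5. Tried in turn were all genes unfiltered, a minimum of log2 6, only the comparison's arrays, a trend and robust prior, averaged or single other probe sets, a second quantile normalization, a common median, log2(value + 16), a replicate block, each array left out, other vehicle days, treated arrays compared directly and, chosen after seeing the data, the 3' to 5' covariate. Tables and plots were made in Python 3.11.15 (numpy 2.4.6, pandas 2.3.3, matplotlib 3.10.9).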

Additional observations from a re-analysis of the deposited data

Results flagged for a closer look

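The treatment difference of these genes differed between days or lines by the interaction test of the model, with adjusted p under 0.05. The values are differences of log2 differences, and none is given an explanation. From day 2 to day 4 in MV4-11 cells they were LTA4H 0.69, ALOX5AP -0.94 and PTGS1 -0.64. From day 2 to day 6 they were LTA4H 0.50, CYSLTR1 -0.70, PTGS1 -1.34 and TBXAS1 0.61. From day 4 to day 6 they were ALOX5AP 0.74, CYSLTR1 -1.14, PTGS1 -0.70 and PTGER4 0.35. In MOLM-13 minus MV4-11 cells on day 6 they were PTGS1 1.73, LTB4R 1.33, PTGER4 0.44, LTA4H -0.56, TBXAS1 -0.71 and LTC4S -1.18. The calls that other settings lose are named with each result above: ALOX5AP and PTGS1 between days 2 and 4, CYSLTR1 and TBXAS1 between days 2 and 6, ALOX5AP, PTGS1 and PTGER4 between days 4 and 6, and LTC4S and TBXAS1 between the lines. The 3 comparisons between days share arrays and are not independent. Groups of 3 arrays are too small for a test of single outlying arrays.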

How the results depend on the processing

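Of 46 called results of the 8 tested genes, 36 were called whichever array was left out. The number of genes called without 1 array was 1 to 3 (3 with all arrays) on day 2, 4 to 5 on day 4 and 5 to 7 on day 6 in MV4-11, and 4 to 5 in MOLM-13 cells. For the day 6 minus day 4 difference it was 2 to 4, with 2 without treated replicate 2 or vehicle replicate 3 of day 4 or vehicle replicate 2 or 3 of day 6. With only the arrays of the comparison 5 genes were called on day 2. Comparing treated arrays directly gave 2 for day 6 minus day 4, and turned PTGER4 to 0.35 for day 4 minus day 2 and to -0.04 for day 6 minus day 4.

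The mean of probe sets turned PTGER4 to -0.51 on day 6, -0.93 for day 6 minus day 2 and -0.72 for day 6 minus day 4, CYSLTR1 to 0.65 in MOLM-13 cells and the line difference of ACSL4 to 0.15. Vehicle arrays of days 2 and 6 turned ALOX5AP to 0.02 on day 4. Single probe sets turned PTGER4 (204896_s_at) to -1.47 on day 6, -1.80 for day 6 minus day 4 and -0.29 in day 4 vehicle cultures. For PTGS1, 238669_at gave 0.02 on day 6 and 0.23 for day 6 minus day 4, and 205127_at, below 4 throughout, gave 0.15 on day 4, 0.09 for day 4 minus day 2 and 0.01 between vehicle lines. For CYSLTR1, 216288_at and 230866_at gave 0.14 and 0.29 for day 6 minus day 2, and 216288_at 0.12 between vehicle lines. The readings of 216288_at may lie near a background level, as given above. ALOX5 (204445_s_at) gave -0.03 between vehicle lines and TBXAS1 (236345_at) 0.03 between the lines' responses, both below 4. The cause was not tested.

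Over all genes, counts of calls moved by more than 1.5 times in few settings. The 3' to 5' covariate gave 4339 (against 7214) in MOLM-13 cells, 1497 (against 2824) for day 6 minus day 4 and 214 (against 123) for vehicle day 6 minus day 2, which was 4 with only its own arrays and 28 to 366 without 1 array. Direct comparison of treated arrays gave 4241 (against 1644) for day 4 minus day 2. Day 2 gave 909 (against 1372) without vehicle replicate 1, and day 4 vehicle 1873 (against 3140) without replicate 3. A common median shifted the median line difference of all genes by 0.16 and raised the share of higher calls from 37.2% to 55.2%.

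Replicate numbers showed no sign of pairing between treated and vehicle arrays of the same line and day. Deviations of same-numbered arrays correlated at -0.26 to 0.10 over 12 pairs (mean -0.04). Those of differently numbered arrays correlated at -0.24 to 0.28 over 24 pairs (mean 0.02). With 3 arrays per group a weak pairing could be missed, and pairing between days was not checked. With the replicate number as a block, 3, 5, 5 and 5 of the 8 genes were called in the treatment comparisons, as without it, and it changed no call of the 10 genes.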
